A study of Saccharomyces cerevisiae with 15 samples.

Results

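The mitochondrial genome of budding yeast is represented in the count table by the rows whose identifier starts with Q0, and every such row was taken. There were 31 of them among 7127 rows. Of these, 22 are annotated by RefSeq on R64, and all 22 lie on the plus strand of the mitochondrial chromosome, which is 85779 bp long. The other 9 identifiers (Q0010, Q0017, Q0032, Q0092, Q0142, Q0143, Q0144, Q0182 and Q0297) have no entry there and are described by their identifiers. The label of the set therefore held for the 22 rows that could be placed.

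Stranded mRNA libraries were made from 15 samples of W303 cells, a laboratory strain of Saccharomyces cerevisiae, in 5 groups of 3 replicates. Cells lacking PDR3 (pdr3Δ, with the HIS3 marker in its place) and cells with PDR3 overexpressed the mitochondrial protein Psd1 (PSD1OE). The same 2 genotypes overexpressed MTSMge1-mCherry, the first 44 residues of Mge1 fused to a fluorescent protein, and cells with PDR3 overexpressed MTSMss116-mCherry, the first 53 residues of Mss116, as the control. Each construct was driven by GAL1-10, a promoter that galactose switches on, and cells in medium with 2% raffinose received 1% galactose for 4 hours, so all 5 groups were overexpressing cells and none was left uninduced. The genotype field of the labels gives an empty 2µ plasmid for every group, and the constructs and the deletion come from the titles and treatment fields. Cells of a whole culture were pooled, so the number of mitochondrial genomes per cell and the amount of RNA made from each cannot be told apart in these counts.

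Yeast mitochondrial DNA encodes the 2 RNAs of the mitochondrial ribosome, core subunits of the respiratory chain and of ATP synthase, 1 protein of the small ribosomal subunit and the RNA of mitochondrial RNase P. Several of its genes carry introns, and some introns encode proteins that help their own splicing or copy the intron into DNA. The genome is transcribed by a dedicated polymerase, Rpo41 with its specificity factor Mtf1, from short promoters with a conserved nonanucleotide, and its messages, unlike nuclear ones, end without a poly(A) tail. The mRNA kit used here captures polyadenylated RNA, so the levels below are what such a selection left of these RNAs.

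The promoter nonanucleotide ATATAAGTA occurred 11 times on the plus strand and 3 times on the minus strand of the mitochondrial chromosome of the reference. It is shown for the 2 ribosomal RNAs, on which the counts turn, and as the nearest match upstream for OLI1, COB, COX1 and RPM1. A window from 250 bases before to 50 bases after the annotated start was searched on both strands. Of the 22 members 2 held the motif there (9.09%), namely 15S_RRNA and 21S_RRNA. Of all 46 genes annotated on the mitochondrial chromosome 3 did (6.52%), and of 6413 nuclear genes 1.08%. The members' windows are not separate, since COX1 and AI1 to AI5_ALPHA share a start, as do COB and BI2 to BI4. The difference from nuclear genes was not tested. The sequences are from RefSeq (R64, plus strand, written 5′ to 3′) with the nonanucleotide in capitals, and the W303 genome itself was not used here.
15S_RRNA, chrMT:6452-6481: atttattattATATAAGTAataaataatag
21S_RRNA, chrMT:57990-58019: attattatatATATAAGTAgtaaaaagtag
OLI1, chrMT:46139-46168: atacacatttATATAAGTAtatatatatat
COB, chrMT:34868-34897: aagaaatattATATAAGTAatatataaaaa
COX1, chrMT:13339-13368: ataagtattgATATAAGTAatagatataat
RPM1, chrMT:85004-85033: aagtaatataATATAAGTAttaatatataa
The last base of the motif lay 1 base before the start of 21S_RRNA and 76 bases before that of 15S_RRNA. For RPM1 the nearest match upstream ended 273 bases before the start, for COX1 461, for OLI1 566 and for COB 1654. The distance was 13821 bases for COX3, 14309 for ATP8 and, the longest of the 22, 15130 for ATP6. A match is a stretch of letters and was not tested as a start of transcription in these cells.

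Libraries held between 9128344 and 15953662 counted reads, with a median of 12181171. PDR3 had 0 to 1 reads in every pdr3Δ library and 921 to 4469 in the others, and the overexpressed genes stood highest in their own groups (PSD1 at 16805 ± 1303 CPM in PSD1OE pdr3Δ cells, 16432 ± 962 CPM in PSD1OE cells and 229.98 ± 41.0 CPM in control cells, SD, n = 3 each). No 2 replicates of a group agreed within sampling noise (over all genes, the lowest chi-square per degree of freedom was 8.29 among 15 pairs), so each was counted as a sample. The labels do not say whether the replicates were separate cultures, so p-values measure the spread between these libraries.

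The members took 286 to 798 reads per library, 7262 in all. As a share of each library this was 22.7 to 57.2 RPM, the reads for each 1000000 counted reads without further normalization, with a median of 38.2 over the 15 libraries. By group, the share was 32.4, 57.2 and 33.2 RPM in PSD1OE pdr3Δ cells, 43.9, 29.0 and 29.3 in PSD1OE cells, 56.7, 35.3 and 46.9 in MTSMge1-mCherry pdr3Δ cells, 46.8, 40.0 and 45.3 in MTSMge1-mCherry cells and 22.7, 38.2 and 32.5 in MTSMss116-mCherry cells. The highest library, replicate 2 of PSD1OE pdr3Δ, had 2.52 times the share of the lowest, replicate 1 of MTSMss116-mCherry. The groups overlapped apart from one pair, in which all 3 MTSMge1-mCherry libraries lay above all 3 control libraries.

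**Figure D1:**
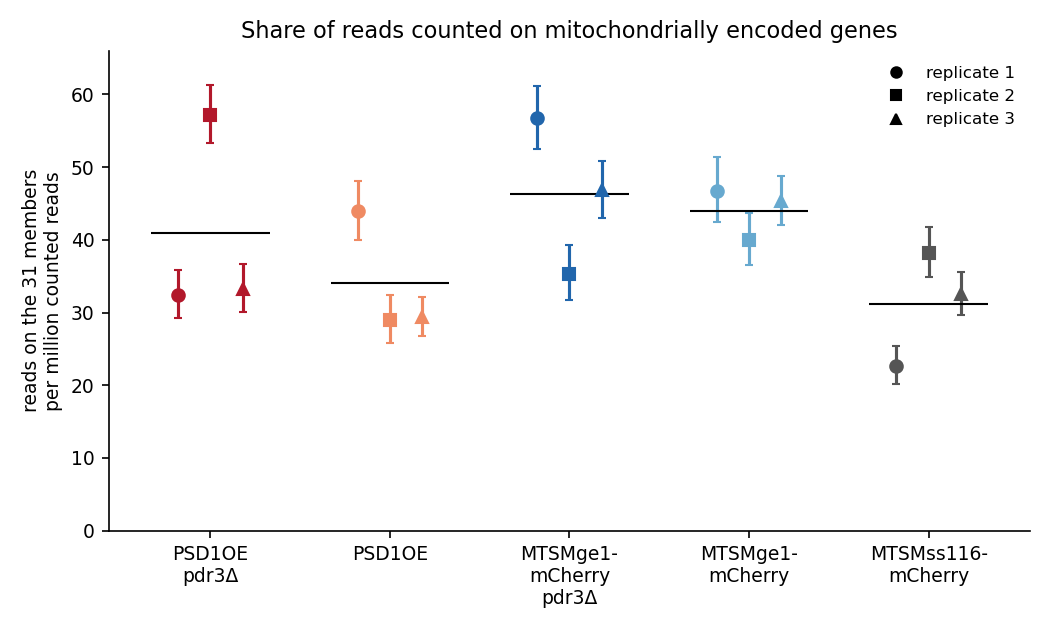
Reads counted on the 31 members, in RPM of all counted reads (y axis), in each library, by group. Points are libraries with exact 95% binomial intervals, which cover counting error only, symbols give the replicate number and horizontal lines the group means. Replicate 2 of PSD1OE pdr3Δ (57.2) and replicate 1 of MTSMge1-mCherry pdr3Δ (56.7) are highest and replicate 1 of MTSMss116-mCherry (22.7) is lowest.

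Counting error accounted for little of this spread. The exact 95% binomial interval was 53.3 to 61.3 RPM in the highest library and 20.1 to 25.4 in the lowest. Within groups, the members' summed reads varied 28.2 times as much as counting error alone would give (chi-square per degree of freedom, 10 degrees of freedom). The values were 11.7 for 21S_RRNA, 13.7 for 15S_RRNA, 5.4 for AI1, 2.76 for AI2 and 2.59 for OLI1. The 24 rows of mitochondrial tRNAs, which carry other identifiers and are not members, held 4 reads in all.

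The 2 ribosomal RNAs held most of the signal. 21S_RRNA (positions 58009 to 62447, 2 exons of 3296 bases together), the RNA of the large mitochondrial ribosomal subunit, had 4595 reads, 63.3% of the members' reads. 15S_RRNA (positions 6546 to 8194), the RNA of the small subunit, had 1826 reads, 25.1%. Together they made up 84.6% to 95.1% of the members' reads in a library. RPM1 (positions 85295 to 85777), the RNA of mitochondrial RNase P, which trims the 5′ ends of mitochondrial tRNAs, had 34 reads.

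Levels between genes were compared per length, as CPM (like RPM, but on TMM-normalized library sizes, which allow for differences in composition) per kb of exon that no other annotated gene shares. On this scale 21S_RRNA averaged 7.57 and 15S_RRNA 5.92 over the 15 libraries. The median nuclear open reading frame stood at 51.1 CPM per kb of gene length (5936 genes with reads, quartiles 24.2 and 119), and 6.40% of these lay below 21S_RRNA. Within a library the ratio of 21S_RRNA to 15S_RRNA per kb ran between 1.03 and 1.82, with a mean of 1.33 ± 0.269 (SD, n = 15), and 21S_RRNA was the higher in all 15. Its group means were 1.51 ± 0.389 in PSD1OE pdr3Δ cells, 1.43 ± 0.337 in PSD1OE cells, 1.32 ± 0.258 in MTSMge1-mCherry pdr3Δ cells, 1.25 ± 0.236 in MTSMge1-mCherry cells and 1.17 ± 0.0969 in MTSMss116-mCherry cells (SD, n = 3 each). All 5 groups overlapped in this ratio, and it was not tested.

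**Figure D2:**
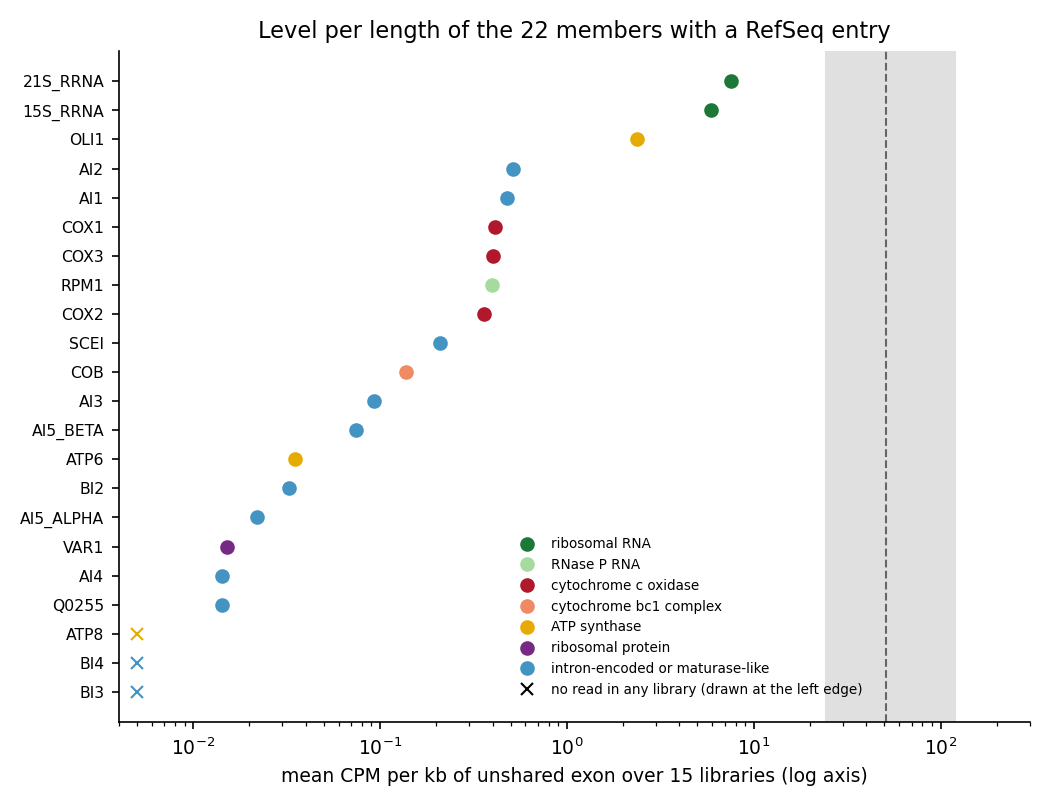
Mean level over the 15 libraries, in CPM per kb of unshared exon (x axis, log scale), for the 22 members with a RefSeq entry, coloured by role. The dashed line and grey band give the median (51.1) and quartiles of nuclear open reading frames. 21S_RRNA (7.57), 15S_RRNA (5.92) and OLI1 (2.36) stand above the rest, and 3 members without a read are drawn as crosses at the left edge.

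Among the protein-coding members, OLI1 stood out. OLI1 (positions 46723 to 46953), which encodes the c subunit of the ATP synthase ring, averaged 2.36 CPM per kb, below both ribosomal RNAs and above every other message. It had 3, 12 and 4 reads in PSD1OE pdr3Δ cells, 1, 1 and 7 in PSD1OE cells, 12, 9 and 6 in MTSMge1-mCherry pdr3Δ cells, 4, 8 and 15 in MTSMge1-mCherry cells and 0, 12 and 10 in control cells. The highest count was in replicate 3 of MTSMge1-mCherry, the only library without a read was in the control group, and the groups of each comparison below overlapped. The other 2 mitochondrial subunits of ATP synthase were close to absent. ATP6 (positions 28487 to 29266), the subunit a gene, had 2, 2 and 1 reads in replicate 2 of PSD1OE pdr3Δ, replicate 1 of MTSMge1-mCherry pdr3Δ and replicate 1 of MTSMge1-mCherry and 0 in the other 12 libraries. ATP8 (positions 27666 to 27812) had no read in any library. Over all 15 libraries a count of 0 allows up to 3 reads among 185175095, and in a single library it allows 0.188 to 0.329 RPM.

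The 3 mitochondrial subunits of cytochrome c oxidase were at like levels per kb of unshared exon, with 0.411 CPM per kb for COX1, 0.40 for COX3 and 0.358 for COX2. For COX1 only 633 of 1605 exon bases are unshared. Its value is too high if reads in its shared exons were counted on it. COX1 (positions 13818 to 26701, 8 exons) had 0, 9 and 2 reads in PSD1OE pdr3Δ cells, 8, 1 and 2 in PSD1OE cells, 4, 2 and 9 in MTSMge1-mCherry pdr3Δ cells, 2, 5 and 1 in MTSMge1-mCherry cells and 0, 1 and 1 in control cells. COX2 (positions 73758 to 74513) had 1, 9 and 1, then 5, 0 and 12, then 8, 5 and 0, then 2, 0 and 5, and 0, 0 and 3 reads in the groups in that order. COX3 (positions 79213 to 80022) had 2, 2 and 1, then 7, 2 and 0, then 15, 4 and 5, then 0, 5 and 11, and 1, 2 and 3 reads. All 3 were low in the control group, at 0 to 1 reads per library for COX1, 0 to 3 for COX2 and 1 to 3 for COX3. Each other group held a library with as few reads of the same gene, apart from MTSMge1-mCherry pdr3Δ. Its lowest library had 2 reads on COX1 and 4 on COX3, above every control library.

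Cytochrome b and the ribosomal protein Var1 were nearly without reads. COB (positions 36540 to 43647, 6 exons), the mitochondrial subunit of the cytochrome bc1 complex, had 3, 4 and 2 reads in replicate 1 of MTSMge1-mCherry pdr3Δ, of MTSMge1-mCherry and of MTSMss116-mCherry, and 0 in the other 12 libraries, among them all PSD1OE libraries. All 9 COB reads thus came from replicate 1. VAR1 (positions 48901 to 50097) had 3 reads, in replicates 1 and 3 of MTSMge1-mCherry pdr3Δ and replicate 1 of MTSMge1-mCherry. Together the 8 messages of the respiratory chain, ATP synthase and the ribosome held 279 reads, 3.84% of the members' reads.

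Without regard to length, more reads fell on the intron-encoded or maturase-like members than on these messages. The 2 sets were not compared per length. The 11 intron-encoded or maturase-like members held 513 reads, 7.06% of the members' reads, and 2 of them held most. AI1 (positions 13818 to 16322) and AI2 (positions 13818 to 18830) encode the reverse transcriptases and maturases of the group II introns of COX1, and had 212 and 226 reads. Per kb of unshared exon they stood at 0.477 and 0.512 CPM, close to the value of COX1 on that scale, which carries the limit given above. Genes of the group I introns were lower, with 0.0932 CPM per kb for AI3, 0.0744 for AI5_BETA, 0.0220 for AI5_ALPHA and 0.0143 for AI4, and SCEI, the I-SceI endonuclease in the intron of 21S_RRNA, had 0.210. Of the COB intron genes, BI2 had 5 reads and BI3 and BI4 had 0, and Q0255, a maturase-like row next to COX2, had 4. The 9 rows without a RefSeq entry held 15 reads, 11 of them on Q0182, and 6 of the 9 were at 0.

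These rows overlap in the annotation, which bears on how far reads can be assigned. COX1 shares its exons with AI1 to AI5_ALPHA, so that 633 of its 1605 exon bases (39.4%) belong to it alone, and COB shares exons with BI2 to BI4, so that 34.7% of its 1158 bases do. Reads in shared exons may have been left uncounted or split, since the counting options for overlapping genes are not given in the sources used here. Sequence repeats touched little. Of the 59-base stretches (the read length) in unshared exons, 15.3% for BI4 and 3.29% for RPM1 occurred elsewhere in the genome, and 0% for the other 20 members placed.

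Since the libraries were selected on runs of A, the longest such run in the unshared exons is shown for some members (RefSeq R64, plus strand, the run in capitals). They include long and short runs and high and low levels, and follow no single ranking. Among those not shown are 15S_RRNA and AI2, with runs of 6. BI3 and BI4, with runs of 7 and 8 and no read, are not shown either.
21S_RRNA, chrMT:60338-60367: attattgaatAAAAAAAAAAtaatatatat
AI5_BETA, chrMT:24592-24621: gaaatattatAAAAAAAAAAgaacaagaag
VAR1, chrMT:49488-49517: ttattattatAAAAAAAAAgtaactattga
AI1, chrMT:14964-14993: gaagtagacttAAAAAAAtgttttgataca
OLI1, chrMT:46731-46760: agtattagcagctAAAtatattggagcagg
ATP8, chrMT:27791-27820: attatttatttctAAAttataatatatatt
21S_RRNA and AI5_BETA both held a run of 10, and differed in level 7.57 to 0.0744 CPM per kb. OLI1 and ATP8 both had runs of no more than 3, and were the highest message and a message without a read. Over the 22 members the longest run and the level per kb had a Spearman's rho of -0.15. The share of A and T had a rho of -0.75 with that level (66.7% in OLI1 and 89.6% in VAR1). Both are given as descriptions over genes that share 1 genome and its base composition. The part of A runs or base composition in these levels was not tested.

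The 28 members that are not structural RNA moved with the ribosomal RNAs from library to library. Their summed share ran between 1.11 and 8.47 RPM, a 7.64-fold range, against 2.28-fold for the ribosomal RNAs (21.5 to 49.2 RPM). Across the 15 libraries the log2 shares of both had a Pearson's r of 0.80 (permutation p = 0.0002) and a Spearman's rho of 0.73 (permutation p = 0.00307). As deviations from group means the values were r = 0.78 (permutation p = 0.00077) and rho = 0.76 (permutation p = 0.00163). Over the 7 relations computed, the adjusted p was 0.0014 and 0.00269 for the 2 values of r and 0.0107 for both values of rho. Without the 2 libraries farthest from the median, r was 0.65 and 0.75. No correlation was computed within a replicate number, each of which holds 5 libraries, fewer than the 6 required here. The total count of a library was not related to its mitochondrial share to a degree that 15 libraries show (r = -0.076, permutation p = 0.787, adjusted p = 0.797; rho = -0.13, permutation p = 0.638; r = 0.20 without the 2 farthest libraries).

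**Figure D3:**
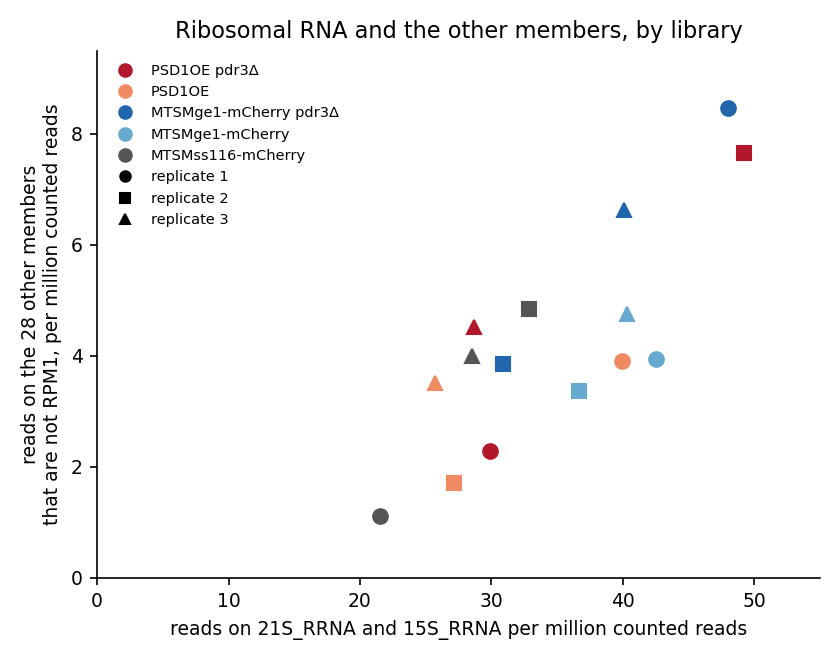
Reads on 21S_RRNA and 15S_RRNA (x axis) against reads on the 28 members other than these and RPM1 (y axis), both in RPM, 1 point a library, coloured by group with symbols for the replicate number. The 2 libraries at the upper right are replicate 1 of MTSMge1-mCherry pdr3Δ and replicate 2 of PSD1OE pdr3Δ, and replicate 1 of MTSMss116-mCherry is at the lower left.

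Nuclear RNAs without a poly(A) tail were set beside the members, since they pass the same selection. Small nucleolar and nuclear RNAs, SCR1, RPR1, NME1 and nuclear ribosomal RNA (107 rows) took 225 to 372 RPM. Their share and that of the members had r = -0.25 (permutation p = 0.371, adjusted p = 0.519) and rho = -0.28 (permutation p = 0.318), and r = -0.059 without the 2 farthest libraries. As deviations from group means r was -0.072 (permutation p = 0.797, adjusted p = 0.797). Nuclear ribosomal rows varied 4.86-fold among libraries, and without these 22 rows the remaining 85 took 152 to 216 RPM and had r = 0.66 with the members (permutation p = 0.00698, adjusted p = 0.0122; rho = 0.48, permutation p = 0.0737, adjusted p = 0.129). That relation rested on the 2 libraries farthest from the median, without which r was 0.23. As deviations from group means r was 0.73 (permutation p = 0.00186, adjusted p = 0.00434) and rho 0.63 (permutation p = 0.0136, adjusted p = 0.0317), with r = 0.52 without the 2 farthest libraries. The part of such RNAs in the differences between groups below was not tested.

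Reads were sufficient for a test, by edgeR's filter on low counts, for 3 to 5 of the 31 members depending on the comparison, namely 21S_RRNA, 15S_RRNA and AI2 in each, AI1 in most and OLI1 in some. The other 26 members passed in none, so for COX1, COX2, COX3, COB, ATP6, ATP8 and VAR1 counts are given and no fold change. DESeq2 was run without this filter, on every row with a read, so its counts of members are not limited to those that passed. A gene was called at an adjusted p of 0.05 or less by edgeR's quasi-likelihood test, with Benjamini-Hochberg adjustment over all genes tested. No member was called in any of the comparisons below.

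MTSMge1-mCherry was compared with MTSMss116-mCherry to ask what the Mge1 presequence does beyond a presequence as such. 21S_RRNA stood at 30.9, 24.5 and 28.1 CPM under MTSMge1-mCherry, against 15.4, 22.1 and 21.3 CPM in control cells, and the groups did not overlap. 15S_RRNA stood at 10.2, 11.2 and 12.4 CPM, against 6.63, 10.3 and 8.40 CPM in control cells, where replicate 2 reached the lowest MTSMge1-mCherry library. The log2 fold change was 0.52 ± 0.173 (SE, 95% confidence interval 0.11 to 0.93) for 21S_RRNA and 0.43 ± 0.200 (-0.046 to 0.90) for 15S_RRNA. By edgeR's quasi-likelihood test 21S_RRNA had an unadjusted p of 0.0208 and an adjusted p of 0.568, the smallest among the members here.

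In that comparison 0 of the 4 members tested were called, against 0.647% of 6184 genes. Of these, 1 had an unadjusted p under 0.05. Among all members with a read, DESeq2 called 0 and gave 1 an unadjusted p under 0.05. AI1 and AI2 had log2 fold changes of -0.61 (-2.45 to 1.22) and 0.10 (-0.93 to 1.14). The whole mitochondrial share was 44.0 ± 3.54 RPM under MTSMge1-mCherry and 31.1 ± 7.86 RPM in control cells (SD, n = 3 each), a mean log2 difference of 0.53, with p = 0.10 by an exact two-sided permutation test. This is the smallest p that 3 libraries against 3 allow, and over the 9 tests of the share its adjusted p was 0.60. Without replicate 1 of MTSMss116-mCherry, the library with the lowest share, the difference was 0.32.

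PSD1OE, which impairs protein import into mitochondria, was compared with the same control. 21S_RRNA had 28.5, 21.1 and 18.1 CPM in PSD1OE cells, against 15.4, 22.1 and 21.3 CPM in control cells, and 15S_RRNA had 10.97, 5.84 and 7.77 CPM against 6.63, 10.3 and 8.40 CPM. Both genes overlapped between the groups. Their log2 fold changes were 0.22 (-0.29 to 0.73) and -0.029 (-0.67 to 0.62) by edgeR. AI1 and AI2 stood at -0.70 (-2.40 to 1.00) and -0.25 (-1.44 to 0.94). Of the 4 members tested 0 were called, against 6.16% of 6168 genes, and neither edgeR nor DESeq2 gave a member an unadjusted p under 0.05. The share was 34.1 ± 8.53 RPM in PSD1OE cells and 31.1 ± 7.86 RPM in control cells (SD, n = 3 each), a log2 difference of 0.14 (exact permutation p = 0.70, adjusted p = 0.90).

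Nuclear genes whose products work with those of the members differed between PSD1OE and control cells. The control cells overexpressed another construct, MTSMss116-mCherry, and its part in the difference was not tested. Of 32 nuclear subunits of the 3 complexes, 27 fell by edgeR's test, where 6.16% of 6168 genes were called in either direction. These were 8 of 9 of cytochrome c oxidase, 8 of 9 of the bc1 complex and 11 of 14 of ATP synthase. The median log2 fold change of these lists was -0.61, -0.61 and -0.60, against 0.0064 over all genes. ATP2, the catalytic β subunit of ATP synthase, stood at 2003, 1901 and 1864 CPM in PSD1OE cells, against 3264, 3420 and 3462 CPM in control cells (log2 fold change -0.80 ± 0.0976, SE). CYT1, cytochrome c1 of the bc1 complex, stood at 642, 630.2 and 586 CPM, against 1009, 1005 and 1020 CPM in control cells (-0.69 ± 0.0947). COX4, a structural subunit of cytochrome c oxidase, had -0.78 ± 0.110. The groups did not overlap for these genes.

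The 5 partners that were not called were QCR10 (-0.49), ATP15 (-0.29), ATP18 (-0.38), ATP19 (-0.28) and COX5B (0.69), the hypoxic form of a subunit whose aerobic form, COX5A, fell (-0.72 ± 0.0949). The count of 27 depended on single libraries. It was 9, 0 and 9 without replicate 1, 2 or 3 of PSD1OE and 7, 29 and 22 without replicate 1, 2 or 3 of MTSMss116-mCherry, while 30 or 31 partners had an unadjusted p under 0.05, and 31 of 32 had a negative log2 fold change, in each of these fits. The interval of 21S_RRNA lay above the median of these partners and that of 15S_RRNA included it. The difference between partners and members was not tested.

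Under MTSMge1-mCherry 0 of the 32 partners and, of the factor genes, only MSS116 (-3.76) passed the same test. The partners were lower here too, with medians of -0.36, -0.33 and -0.33, and every partner but COX5B (0.46) had a negative log2 fold change. By edgeR 6, 8 and 13 genes of the cytochrome c oxidase, bc1 and ATP synthase lists had an unadjusted p under 0.05, against 7.02% of all genes. Both comparisons share the control libraries. Factors that serve single mitochondrial genes were also read. NCA3, which with NCA2 regulates expression of ATP8 and ATP6, stood at 303, 276 and 229 CPM in PSD1OE cells, against 82.9, 54.3 and 46.5 CPM in control cells, and rose (log2 fold change 2.15 ± 0.229, SE), while its target messages had too few reads to follow. RPM2, the protein partner of RPM1 in RNase P, fell (-0.74 ± 0.112), and MEF2, a mitochondrial translation factor, fell (-1.07 ± 0.111). MSS51 and CBP6, which act in the synthesis of Cox1 and cytochrome b, rose by 0.41 and 0.43, and MHR1, which acts in recombination of mitochondrial DNA, rose by 0.52.

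In PSD1OE over MTSMss116-mCherry 6.16% of all 6168 genes tested were called. Of the list of 10 genes of mitochondrial DNA maintenance and transcription, MHR1 was the 1 called. Of 18 genes of RNA processing, 13 translational activators and 8 translation factors, 3, 2 and 1 were called. The third of the processing genes was MSS116 itself (-3.71), part of which the control construct carries. RPO41 averaged 239.6 ± 12.5 CPM in PSD1OE cells and 238.9 ± 30.5 CPM in control cells, and MTF1 56.7 ± 1.97 CPM in PSD1OE cells and 47.6 ± 6.31 CPM in control cells (SD, n = 3 each), and neither was called in this comparison. MTF1 averaged 60.3 ± 2.89 CPM in PSD1OE pdr3Δ cells, 49.9 ± 4.43 CPM in MTSMge1-mCherry pdr3Δ cells and 45.6 ± 1.18 CPM in MTSMge1-mCherry cells (SD, n = 3 each), and was called by edgeR for a difference among the 5 groups (adjusted p = 0.0343). RPO41 was not called there, and was called for the replicate number (adjusted p = 0.0378 by edgeR).

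Deletion of PDR3 was compared within each construct. Under MTSMge1-mCherry, 21S_RRNA stood at 31.7, 22.4 and 30.2 CPM in pdr3Δ cells, against 30.9, 24.5 and 28.1 CPM in cells with PDR3, a log2 fold change of 0.013 (-0.36 to 0.38). 15S_RRNA stood at -0.010 (-0.62 to 0.60), AI2 at 0.49 (-0.74 to 1.73) and OLI1 at 0.17 (-0.96 to 1.29). AI1 had 2.20, 1.11 and 1.36 CPM in pdr3Δ cells, against 0.741, 0.313 and 1.12 CPM in cells with PDR3, and the groups overlapped by a single library (log2 fold change 1.07, -0.11 to 2.26, edgeR adjusted p = 0.862). Of the 5 members tested 0 were called, against 0.728% of 6184 genes, and neither edgeR nor DESeq2 gave a member an unadjusted p under 0.05.

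Under PSD1OE, 21S_RRNA stood at 23.9, 33.6 and 22.5 CPM in pdr3Δ cells, against 28.5, 21.1 and 18.1 CPM in cells with PDR3. Replicate 2 of the pdr3Δ group was far above its replicates for 21S_RRNA, 15S_RRNA (6.58, 15.7 and 6.92 CPM) and AI1 (0.433, 2.87 and 1.18 CPM). The log2 fold changes were 0.25 (-0.22 to 0.72) for 21S_RRNA, 0.26 (-0.58 to 1.10) for 15S_RRNA, 1.14 (-0.36 to 2.64) for AI1 and 0.73 (-0.23 to 1.69) for AI2. Of the 4 members tested 0 were called, against 0.715% of 6150 genes, and edgeR gave none an unadjusted p under 0.05. DESeq2, run on all members with a read, gave 1 an unadjusted p under 0.05.

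In these 2 comparisons libraries deviated together for every replicate number, so a block for the number was added to both fits. With the block 370 and 603 genes were called, against 45 and 44 without it, under MTSMge1-mCherry and under PSD1OE, and 0 members in either. The mitochondrial share was 46.3 ± 10.7 RPM in pdr3Δ cells and 44.0 ± 3.54 RPM in cells with PDR3 under MTSMge1-mCherry, and 40.9 ± 14.1 RPM in pdr3Δ cells and 34.1 ± 8.53 RPM in cells with PDR3 under PSD1OE (SD, n = 3 each). Over both constructs the log2 difference was 0.14 (exact permutation p = 0.45, labels permuted within constructs, adjusted p = 0.90). The gene lists were read without the block, and no mitochondrial factor or partner gene of them was called in either comparison. Medians of the cytochrome c oxidase, bc1 and ATP synthase lists were -0.11, -0.12 and -0.17 under MTSMge1-mCherry. They were -0.10, -0.093 and -0.093 under PSD1OE.

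**Figure D4:**
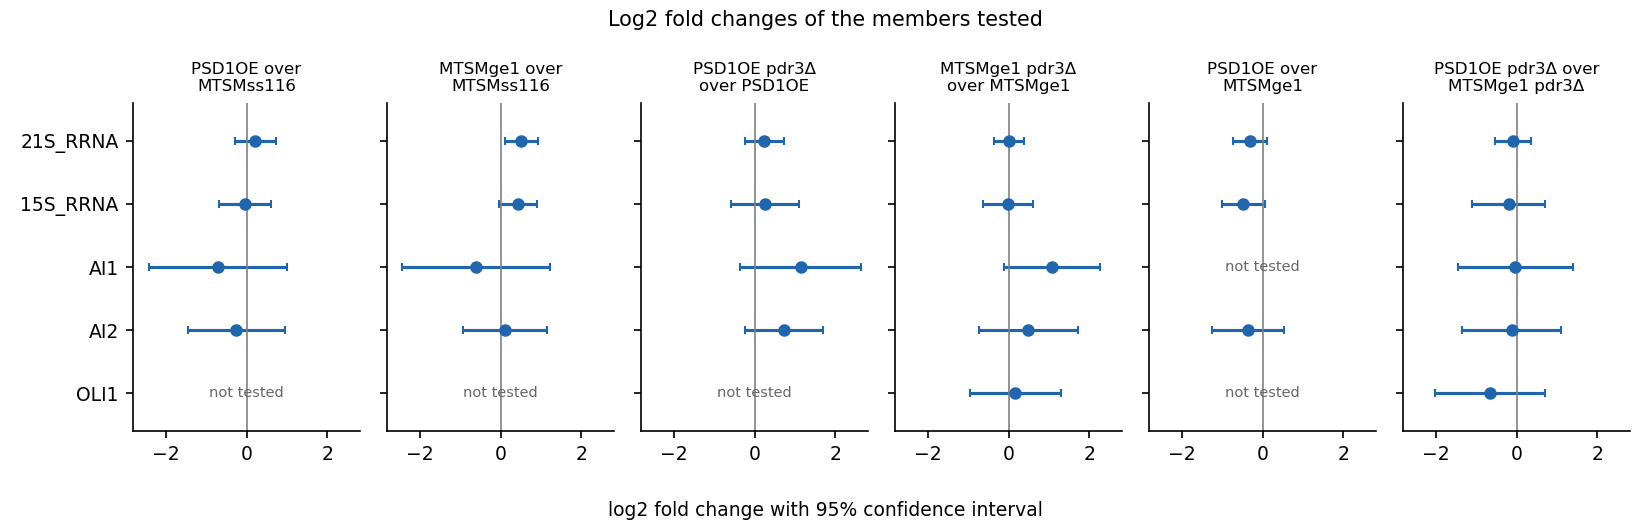
Log2 fold change (x axis) with 95% confidence interval by edgeR for the members that passed the filter on low counts, in the 6 comparisons of 2 groups. Only the interval of 21S_RRNA in MTSMge1-mCherry over MTSMss116-mCherry (0.11 to 0.93) lies off 0, and its adjusted p was 0.568.

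PSD1OE was also compared with MTSMge1-mCherry. In cells with PDR3, 21S_RRNA had a log2 fold change of -0.31 (-0.74 to 0.11) in PSD1OE over MTSMge1-mCherry, 15S_RRNA -0.47 (-1.01 to 0.071) and AI2 -0.36 (-1.25 to 0.53). Of these 3 members 0 were called, against 4.89% of 6157 genes, and neither edgeR nor DESeq2 gave one an unadjusted p under 0.05. In pdr3Δ cells the values were -0.076 (-0.52 to 0.37) for 21S_RRNA, -0.20 (-1.11 to 0.71) for 15S_RRNA, -0.033 (-1.46 to 1.39) for AI1, -0.12 (-1.35 to 1.11) for AI2 and -0.65 (-2.01 to 0.71) for OLI1. Of these 5 members 0 were called, against 3.93% of 6161 genes, and edgeR gave none an unadjusted p under 0.05. DESeq2, run on all members with a read, gave 1 an unadjusted p under 0.05.

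Of the 32 partners 3 were called in cells with PDR3 (4.89% of all genes were) and 2 in pdr3Δ cells (3.93% of all genes). The medians of the cytochrome c oxidase, bc1 and ATP synthase lists were -0.29, -0.29 and -0.28 in cells with PDR3 and -0.30, -0.27 and -0.18 in pdr3Δ cells, and by edgeR 8, 8 and 10 of their genes had an unadjusted p under 0.05 in cells with PDR3 (21.3% of all genes did) and 7, 8 and 6 in pdr3Δ cells (21.2% of all genes). In cells with PDR3, COX5A (-0.37), QCR6 (-0.40), ATP2 (-0.38) and MEF2 (-0.68) fell by edgeR and NCA3 (1.99), MHR1 (0.48) and CBP6 (0.48) rose. In pdr3Δ cells COX4 (-0.40), COX8 (-0.40) and MEF2 (-0.69) fell and NCA3 (2.05), MHR1 (0.45) and MRF1 (0.39) rose.

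Over both genotypes the mitochondrial share was lower in PSD1OE than in MTSMge1-mCherry cells by a mean log2 difference of -0.30, which did not pass the test (exact permutation p = 0.17, labels permuted within genotypes, adjusted p = 0.60). A single library weighed on this value. With each of the 12 libraries left out in turn, the difference ran from -0.43 to -0.22. It was -0.43 without replicate 2 of PSD1OE pdr3Δ, the library with the highest share. Whether the PDR3 effect differed between the constructs was tested as an interaction over 12 libraries. For OLI1 it was 0.88 (-1.13 to 2.88), for 15S_RRNA 0.26, for AI2 0.23, for 21S_RRNA 0.22 (-0.39 to 0.84) and for AI1 0.056, and 0 of 5 members were called, against 0.016% of 6238 genes, with none under an unadjusted p of 0.05 by edgeR or DESeq2.

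Finally, the members were read by replicate number, which the library names give as the letters A, B and C. The share was 40.5 ± 13.2 RPM in replicate 1, 39.9 ± 10.5 in replicate 2 and 37.5 ± 8.02 in replicate 3 (SD, n = 5 each), and the numbers did not separate by an exact permutation test within groups (p = 0.910, adjusted p = 0.910). Of the 5 members tested 0 were called for the replicate number, against 36.3% of 6251 genes, and neither edgeR nor DESeq2 gave one an unadjusted p under 0.05. For any difference among the 5 groups 0 of 5 members were called, against 15.1% of 6251 genes, and edgeR gave none an unadjusted p under 0.05. DESeq2, run on all members with a read, gave 1 an unadjusted p under 0.05. The smallest adjusted p by edgeR was 0.379 for the replicate number (OLI1) and 0.287 for the groups (21S_RRNA). In the test over the groups, 21S_RRNA had a biological coefficient of variation of 0.178 and AI1 of 0.545, against a median of 0.116 over all genes.

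**Figure D5:**
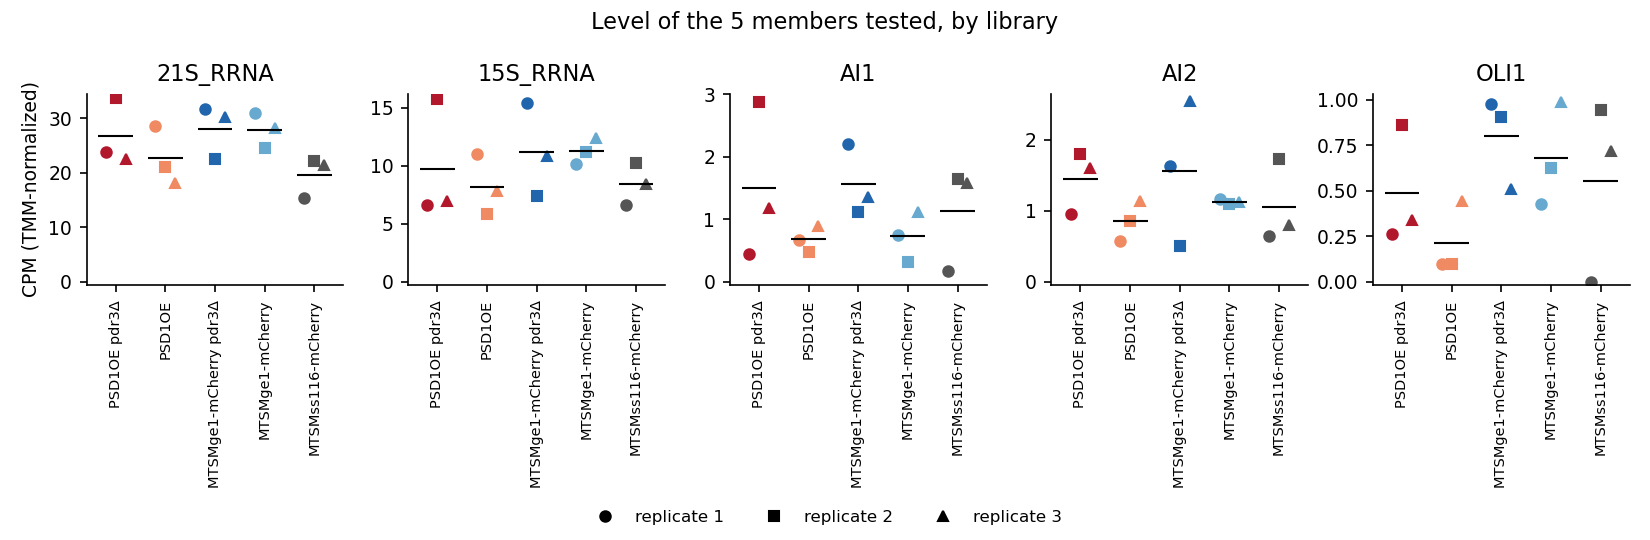
Level in CPM (y axis, TMM-normalized, a separate scale for each gene) of the 5 members that passed the filter on low counts, by group. Symbols give the replicate number and horizontal lines the group means. Replicate 2 of PSD1OE pdr3Δ is the highest library for 21S_RRNA (33.6), 15S_RRNA (15.7) and AI1 (2.87).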

How the data were processed

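The authors aligned paired 59-base reads to the R64 genome with DRAGEN, counted them on genes with featureCounts and deposited whole-number counts without normalization. The options of featureCounts for overlapping genes and for reads with several alignments are not given in the sources used here. The 15 columns were matched to samples by library name. Members were taken by identifier, and names and positions come from RefSeq (R64), which held 22 of the 31 identifiers. Members and gene lists were chosen with earlier results of these data known.

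Counts were tested with edgeR 4.0.16 (R 4.3.3), with quasi-likelihood tests, TMM, filterByExpr and Benjamini-Hochberg adjustment over all genes, on the groups compared, and again with DESeq2 1.42.0. Both were run on simulated data with the same dispersion for every gene, which does not show their power or error for the members. Standard errors come from the F statistic. Intervals of shares are exact 95% binomial intervals, and a count of 0 was read as allowing 3 reads, both for counting error only. Shares were compared by exact permutation tests and relations by 100000 permutations (Python 3.11.15, scipy 1.17.1). Named genes were the 8 messages, members called or tested or extreme per length, and genes of the lists. Libraries with the same replicate number deviated together in both comparisons of PDR3 genotype (r of 0.15 to 0.56 across genes), a pairing that comes from the titles' numbers. In the other comparisons of 2 groups r ran from -0.10 to 0.57. Over all groups, libraries of different groups had a mean r of 0.33 with the same number and -0.16 with different numbers. Tests without the block do not allow for this.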

Additional observations from a re-analysis of the deposited data

How the results depend on the processing

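The count of members called was 0 in all 9 tests with RLE size factors, total library size, both filters on low counts and DESeq2. It was also 0 with the replicate block (not run for the replicate number), with all groups in one fit and an added fold threshold (both run for the 6 comparisons of 2 groups), with each library left out (those 6 and the interaction) and with the libraries of 1 replicate number left out (the tests over 15 libraries). With the block the log2 fold changes of members ran between -0.73 and 1.06, with a smallest adjusted p of 0.13 by edgeR, and it changed no member's call. Calls over all genes did move. They were 40 in MTSMge1-mCherry over MTSMss116-mCherry, and 118 with DESeq2 and 97 with all groups in one fit. They were 380 in PSD1OE over MTSMss116-mCherry, and 908, 988 and, with the block, 867. They were 301 and 242 in PSD1OE over MTSMge1-mCherry in cells with PDR3 and in pdr3Δ cells, and 644 and 573 with DESeq2 1153 and 949 with the block and, in pdr3Δ cells, 463 with all groups in one fit. For MTSMge1-mCherry pdr3Δ and PSD1OE pdr3Δ over their constructs they were 45 and 44, 77 and 130 with DESeq2, and 370 and 603 with the block. Over the 5 groups they were 945, and 1563 with DESeq2 and 2211 with the block, and for the interaction 1, 12 and 8, and 0 on total library size. With each library left out they ran, in the order given, from 22 to 52, 50 to 1503, 41 to 426, 3 to 326, 28 to 54 and 27 to 122, and with the 5 libraries of 1 replicate number left out they were at most 538 over the 5 groups and from 1 to 2250 for the replicate number, against 2266. With a log2 fold change of at least 1 also required, 98, 60, 38 and 22 genes were left for PSD1OE over MTSMss116-mCherry, both comparisons of the constructs and PSD1OE pdr3Δ over PSD1OE.

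Signs of small fold changes depended on single libraries. Leaving out each in turn, the log2 fold change ran, in MTSMge1-mCherry over MTSMss116-mCherry, from -0.15 to 0.63 for AI2. In PSD1OE over MTSMss116-mCherry it ran from -0.31 to 0.14 for 15S_RRNA, from -0.57 to 0.29 for AI2 and from -0.013 to 0.33 for 21S_RRNA. In MTSMge1-mCherry pdr3Δ over MTSMge1-mCherry it ran from -0.30 to 0.22 for 15S_RRNA, -0.042 to 0.89 for AI2, -0.039 to 0.55 for OLI1 and -0.071 to 0.16 for 21S_RRNA, and in PSD1OE pdr3Δ over PSD1OE from -0.28 to 0.52 for 15S_RRNA. Between the constructs in pdr3Δ cells it ran from -0.74 to 0.10 for 15S_RRNA, -0.51 to 0.40 for AI2, -0.95 to 0.38 for AI1 and -0.28 to 0.019 for 21S_RRNA, and for the interaction from -0.27 to 0.55, -0.16 to 0.77 and -0.85 to 0.47 for 15S_RRNA, AI2 and AI1. The partners that fell in PSD1OE over MTSMss116-mCherry numbered 0 to 29, alternatives chosen after seeing the data.

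The log2 difference of the mitochondrial share ran from -0.11 to 0.23 for MTSMge1-mCherry pdr3Δ over MTSMge1-mCherry, and was -0.027 on the ribosomal RNAs alone, an alternative also chosen after seeing the data. It ran from 0.32 to 0.69 for MTSMge1-mCherry over MTSMss116-mCherry, -0.077 to 0.30 for PSD1OE over MTSMss116-mCherry, -0.026 to 0.44 for PSD1OE pdr3Δ over PSD1OE and -0.43 to -0.22 for PSD1OE over MTSMge1-mCherry in both genotypes. The relation to nuclear RNAs without a tail, r = -0.25, turned to 0.66 without nuclear ribosomal RNA, and to 0.23 when 2 libraries were also left out. As deviations from group means it was -0.072 with nuclear ribosomal RNA and 0.73 without. The cause was not tested in any of these.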

Other observations

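A few rows that did not pass edgeR's filter had group values that stand apart. They were chosen here after their values were seen, and are given without a p-value. The fits by edgeR without this filter and by DESeq2 covered every row with a read and called no member. SCEI, the endonuclease gene in the 21S_RRNA intron, had 5, 4 and 5 reads in PSD1OE pdr3Δ cells, against 0, 0 and 1 in PSD1OE cells. Under MTSMge1-mCherry it had 4, 0 and 4 reads in pdr3Δ cells, against 0, 1 and 2 in cells with PDR3, where the groups overlapped. AI3, the endonuclease gene of a COX1 group I intron, had 8 of its 18 reads in replicate 3 of MTSMge1-mCherry pdr3Δ. Q0182 had 11 reads over 7 libraries and none in the 6 libraries of both PSD1OE groups. COB had its 9 reads in 3 libraries and AI5_BETA its 13 reads in 4, so that single libraries carried most of what was read from these genes.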
